A study of Mus musculus with 6 samples.

Results

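Open chromatin was described at 10 genes of the transforming growth factor-β (TGF-β) pathway in mouse kidney cortex: the ligands Tgfb1, Tgfb2 and Tgfb3, the receptors Tgfbr1 and Tgfbr2, the signal transducers Smad2, Smad3 and Smad4, the inhibitory Smad7 and the target gene Ccn2. The peaks of each gene were the distinct intervals of the deposited peak list that overlapped the stretch from 3 kb upstream of the gene to its end. This gave 187 intervals of the 279569 in the list. The caller wrote 1 row per summit, the point of highest signal within a peak, and these intervals held 792 of the 749750 summits.

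The data came from ATAC-seq, in which the Tn5 transposase cuts DNA that is not packed into nucleosomes, so that read pile-ups mark accessible chromatin. The 6 libraries were made from kidney nuclei of 3 WT and 3 Acly cKO mice, all with the treatment label Control. The study's methods give an age for the mice of its disease models and do not say whether it covers these mice. By the methods of the study, Acly cKO mice carry floxed Acly alleles and a Ksp-Cre (Cdh16-Cre) transgene, which deletes the gene for ATP-citrate lyase in tubule cells, including proximal tubule, distal tubule and collecting duct, but not in the other cells of the cortex. The controls were littermates with floxed Acly and no Cre, although the labels call them WT. Each batch held a single genotype (1 and 2 for WT, 4 and 5 for Acly cKO), so the effects of genotype and batch cannot be told apart. The authors deposited 1 peak call named for all libraries together, with no column for a single library. WT and Acly cKO were therefore not compared, no value below has a replicate error, and the depth of each library is unknown. The study also used WT libraries deposited earlier, which were not analysed here, and the peak list does not say whether they entered the pool.

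TGF-β ligands are secreted in a latent form bound to the extracellular matrix and, once released, bind TGFBR2, a kinase that recruits and activates TGFBR1. TGFBR1 phosphorylates SMAD2 and SMAD3, which join SMAD4 and enter the nucleus to change transcription. SMAD7, itself induced by the pathway, acts on the receptor to shut the signal off. In the kidney the pathway is best known for driving scarring: it makes fibroblasts and injured tubule cells produce matrix, and Ccn2 (connective tissue growth factor) is among its classical fibrosis targets. An accessible site shows that DNA can be reached by proteins. It does not show that a gene is transcribed.

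All 10 genes had an interval overlapping 1 kb on either side of the start of their canonical transcript, as did 75.8% of the 21757 protein-coding genes. At all 10 this interval reached a fold enrichment of at least 5, against 66.2% of protein-coding genes. The fold enrichment is a linear ratio of the reads piled up at a summit to the genome-wide background of the caller. Of the 187 intervals, 40 reached 5-fold, while 24.5% of all intervals in the list and 25.6% of all pairs of an interval and a protein-coding gene did. The median over the 187 intervals was 2.55-fold, and it was also 2.55-fold over the whole list. Values at these genes ran from 1.70-fold to 79.5-fold, many of them low. At 10-fold or more were 23 of the 187 intervals, and 34249 of the 279569 in the list.

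The sequences below are the windows of 200 bases around the highest summit within 1 kb of the start of 5 genes, read from GRCm39 on the strand of the gene and shortened so as to leave out annotated untranslated regions. They are shown because the start peaks are the tallest sites of most of these genes. Capitals mark matches, on either strand, to GGGCGG (bound by Sp and KLF factors), CCAAT (NFY) or GGAATG (TEAD factors, the DNA-binding partners of YAP). Positions count from 0 at the first base of the annotated canonical transcript, with negative numbers upstream.
Tgfb1, chr7:25386195-25386389, + strand: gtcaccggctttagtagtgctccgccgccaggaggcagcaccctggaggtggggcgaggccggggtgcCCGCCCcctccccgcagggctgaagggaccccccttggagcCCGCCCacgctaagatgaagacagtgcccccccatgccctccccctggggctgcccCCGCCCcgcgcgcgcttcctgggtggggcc
Tgfb3, chr12:86126302-86126434, - strand: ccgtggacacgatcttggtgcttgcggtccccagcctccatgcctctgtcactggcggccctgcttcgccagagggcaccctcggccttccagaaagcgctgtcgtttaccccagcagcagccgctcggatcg
Tgfbr1, chr4:47353053-47353133, + strand: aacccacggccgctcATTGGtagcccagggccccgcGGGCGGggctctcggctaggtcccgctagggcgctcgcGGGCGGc
Smad3, chr9:63665477-63665569, - strand: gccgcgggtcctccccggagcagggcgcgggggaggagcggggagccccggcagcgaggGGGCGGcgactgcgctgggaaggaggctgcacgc
Ccn2, chr10:24471225-24471332, + strand: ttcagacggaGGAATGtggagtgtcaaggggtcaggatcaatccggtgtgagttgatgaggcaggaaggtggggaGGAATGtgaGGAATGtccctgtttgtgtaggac

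For Tgfb2 and Tgfbr2 the highest summit lay inside the transcribed first exon. The 30 bases around the single motif match in its window are shown for these genes, and for Ccn2 and Tgfb3 the 30 bases around a match that also lay in an annotated untranslated region. Here capitals also mark TATAAA (the TATA box) and TGANTCA (the site of AP-1, the FOS and JUN dimers).
Tgfb2, chr1:186437639-186437668, - strand: tgtggatctccgGGGCGGacagtatcccac
Tgfb3, chr12:86126235-86126264, - strand: gagccgggttccaccctggggcctGGAATG
Tgfbr2, chr9:116004340-116004369, - strand: aagttgatgagTGAGTCActcgcgcgcacc
Ccn2, chr10:24471365-24471394, + strand: gagcgTATAAAagccagcgCCGCCCgccta

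The start windows differed in base composition. Those of Tgfb1, Tgfb2, Tgfbr1 and Smad3 were rich in G and C, each with at least 1 GGGCGG match, and the GC content of the full 200 bases was 76% at Tgfb1, 76% at Tgfb2, 78.5% at Tgfbr1 and 76% at Smad3. The median over all 10 genes was 72.8%, against 65% over the 16410 protein-coding genes with a summit near their start. Tgfb3 (66%) and Smad7 (67%) lay close to the median of all genes. Ccn2 was lowest, with 55.5% GC, and only 16.4% of the 16410 genes had less. Its window held 3 GGAATG matches, at -98, -33 and -24, and a TATAAA at 37, downstream of the annotated start. Whether this TATAAA acts as a TATA box was not tested. Among start windows of all protein-coding genes 7.53% held GGAATG and 3.07% held TATAAA. Over the 10 genes, GGAATG occurred in the start windows of 4, TATAAA in 1, GGGCGG in 8 (57.6% of all start windows), CCAAT in 1 (30.1%) and TGANTCA in 1 (4.10%). CAGACA, a short SMAD site, was in 0 (10.4%), as was CCGGAAGT, an ETS site (6.17%). The other patterns counted below were also in 0.

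The ligand genes had the lowest start peaks of the 10. Tgfb1 (chr7:25386390-25404506, + strand), which encodes the main fibrogenic isoform, peaked at 22.9-fold near its start, at position -95. This rested on 349 overlapping reads, with an exact Poisson interval of 20.6 to 25.4 at a confidence level of 95%. Such intervals cover counting error only. Its summits did not end at the start: a summit of 22.7-fold lay at 204 bases and one of 24.6-fold at 2421 bases, near the start of another Tgfb1 transcript. By the interval rule Tgfb1 would be given 53.2-fold, but that value comes from a summit next to other genes. The interval is 12242 bp wide with 34 summits, and its tallest summit lay at -6136, within 1 kb of the starts of B9d2 and Tmem91. A second interval, 12970 bp wide with 36 summits, began inside the gene and reached its maximum of 15.8-fold well beyond the gene end. The other 5 of its 7 intervals were under 5-fold.

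Tgfb2 (chr1:186354985-186438294, - strand), the isoform with a role in kidney development, had the lowest start peak, with 12.3-fold (10.6 to 14.2, 187 reads) at 634 bases into the gene. Within 250 bases of its start the highest summit was only 7.40-fold. It had 13 intervals, 10 of them in the first intron, and only 1 of these reached 5-fold: a single-summit interval of 8.45-fold, 49665 bases into the gene (chr1:186388303-186388941). Intervals covered 11.3% of its region, the lowest share of the 10 genes.

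Tgfb3 (chr12:86102756-86126301, - strand) had 4 intervals. Its start peak was 24.6-fold (22.2 to 27.2, 375 reads) and lay at -514 from the canonical start, close to the start of a longer transcript, while 12.0-fold was reached within 250 bases of the canonical start. The strongest interval assigned to the gene, with 24.7-fold, peaked at -3525, within 1 kb of the start of Ift43, a gene for a ciliary transport protein and cannot be credited to Tgfb3 alone. No interval reached 5-fold inside the gene beyond its start.

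**Figure D1:**
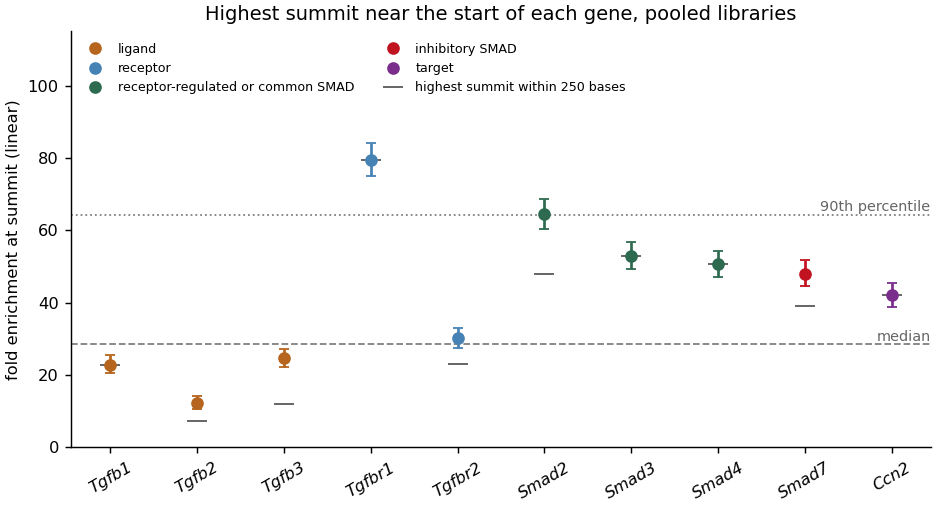
Fold enrichment at the highest summit within 1 kb of the canonical start of each gene (linear axis), with exact Poisson intervals at 95% as bars (counting error only). Short grey lines give the highest summit within 250 bases, and dashed and dotted lines give the median (28.5) and the 90th percentile (64.2) over the protein-coding genes with a summit there. Tgfbr1 is highest at 79.5 and Tgfb2 lowest at 12.3.

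Both receptor genes had their tallest peak at the start, and they differed in its height and in the number of other intervals. Tgfbr1 (chr4:47353134-47414931, + strand), the type I receptor kinase that phosphorylates the SMADs, had the tallest start peak of the set: 79.5-fold (75.1 to 84.1, 1214 reads) at 19 bases from the first base, higher than 96.3% of protein-coding genes. The interval was 5817 bp wide and held further summits of 29.3-fold at 446 bases, 20.1-fold at -1236 and 21.8-fold at -3175. Away from the start the gene was nearly flat. Of its other 18 intervals only 2 reached 5-fold, 1 of 7.33-fold in intron 4 near the start of the noncoding gene Gm68266 and 1 of 5.24-fold in intron 8. The 14 intervals in its first intron all stayed under 5-fold.

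Tgfbr2 (chr9:115913361-116004800, - strand), the ligand-binding type II receptor kinase, had a lower start peak of 30.2-fold (27.6 to 33.1, 461 reads) at 451 bases, with 23.0-fold at -212. It had the most intervals of the set, 46, more than 97.0% of protein-coding genes have. The gene is also long, with 91440 bases, and its 4.87 intervals per 10 kb were more than in 90.3% of protein-coding genes. Of the 46 intervals 25 lay in the first intron, and intervals covered 38.2% of the region. Beyond the start 4 intervals reached 5-fold: 12.6-fold in the first intron 22673 bases from the start (chr9:115979685-115983168), 9.76-fold in exon 7, 6.35-fold in intron 6 and 5.24-fold in the first intron at 8161 bases. The start of the noncoding gene Gm4668 lies within 1 kb of the start peak, and the signal cannot be divided between the 2 genes. The same holds for Gm29491 at Tgfb2, Gm48008 at Tgfb3, Gm20544 and Gm58512 at Smad7, and Gm15270 at Ccn2.

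The tallest intronic windows of Tgfbr2 and Smad3 are printed in full as examples of sites more than 1 kb from any annotated start, on the strand of the gene. Tgfbr2 was taken because it has the most intervals. Smad3 was added after its values were seen.
Tgfbr2 intron 1, chr9:115982027-115982226, - strand: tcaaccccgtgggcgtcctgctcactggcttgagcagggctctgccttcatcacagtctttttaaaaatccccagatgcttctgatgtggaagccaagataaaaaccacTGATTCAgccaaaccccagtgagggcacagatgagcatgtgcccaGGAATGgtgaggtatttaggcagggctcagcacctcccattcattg
Smad3 intron 1, chr9:63606118-63606317, - strand: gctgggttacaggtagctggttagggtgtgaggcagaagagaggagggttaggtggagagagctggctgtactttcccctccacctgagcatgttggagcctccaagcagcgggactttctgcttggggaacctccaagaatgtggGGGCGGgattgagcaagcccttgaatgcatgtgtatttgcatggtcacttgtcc
The Tgfbr2 window held 1 AP-1 match and 1 TEAD match, and the Smad3 window 1 GGGCGG match. Their GC contents of 52% and 55.5% were far below the 71% and 76% of the windows at the starts of the same genes.

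The start peaks of all 3 signal transducers were above 50-fold, that of Smad2 apart from those of Smad3 and Smad4 by counting error, and their gene bodies differed. Smad2 (chr18:76374327-76445180, + strand) had 64.4-fold (60.5 to 68.6, 983 reads) at -365 and 48.0-fold at 22 bases. Its other 25 intervals were low, and only 1, of 7.46-fold in intron 2, reached 5-fold. Smad4 (chr18:73769343-73836915, - strand), the partner shared with the bone morphogenetic protein (BMP) branch, had 50.6-fold (47.1 to 54.3, 772 reads) at -20. Of its 26 intervals 6 reached 5-fold, the tallest away from the start being 14.8-fold in intron 4, at 38249 bases, and 10.8-fold near another Smad4 transcript start, at 6909 bases. The remaining 3 lay between 5.76-fold and 6.81-fold.

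Smad3 (chr9:63554049-63665476, - strand), the transducer most closely tied to fibrosis, was accessible over most of its length. Its start peak was 53.0-fold (49.4 to 56.8, 809 reads) at 6 bases. Intervals covered 82.8% of the region, more than in 92.6% of protein-coding genes, with 280 summits in 40 intervals. Of these 14 reached 5-fold and 7 reached 10-fold, and 9 of the 14 lay in the first intron. The tallest intronic peaks were 28.9-fold at 59258 bases (chr9:63603822-63607177), 27.8-fold at 41863 bases, 26.1-fold at 11643 bases and 24.0-fold at 51627 bases. The counting intervals of the first, 26.3 to 31.8, and of the last, 21.6 to 26.6, overlapped. Differences among these 4 peaks were not tested. Each of them was taller than the start peak of Tgfb2, whose counting interval ended at 14.2. Further 3′, a single interval of 17558 bp with 50 summits reached 15.0-fold in intron 4.

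**Figure D2:**
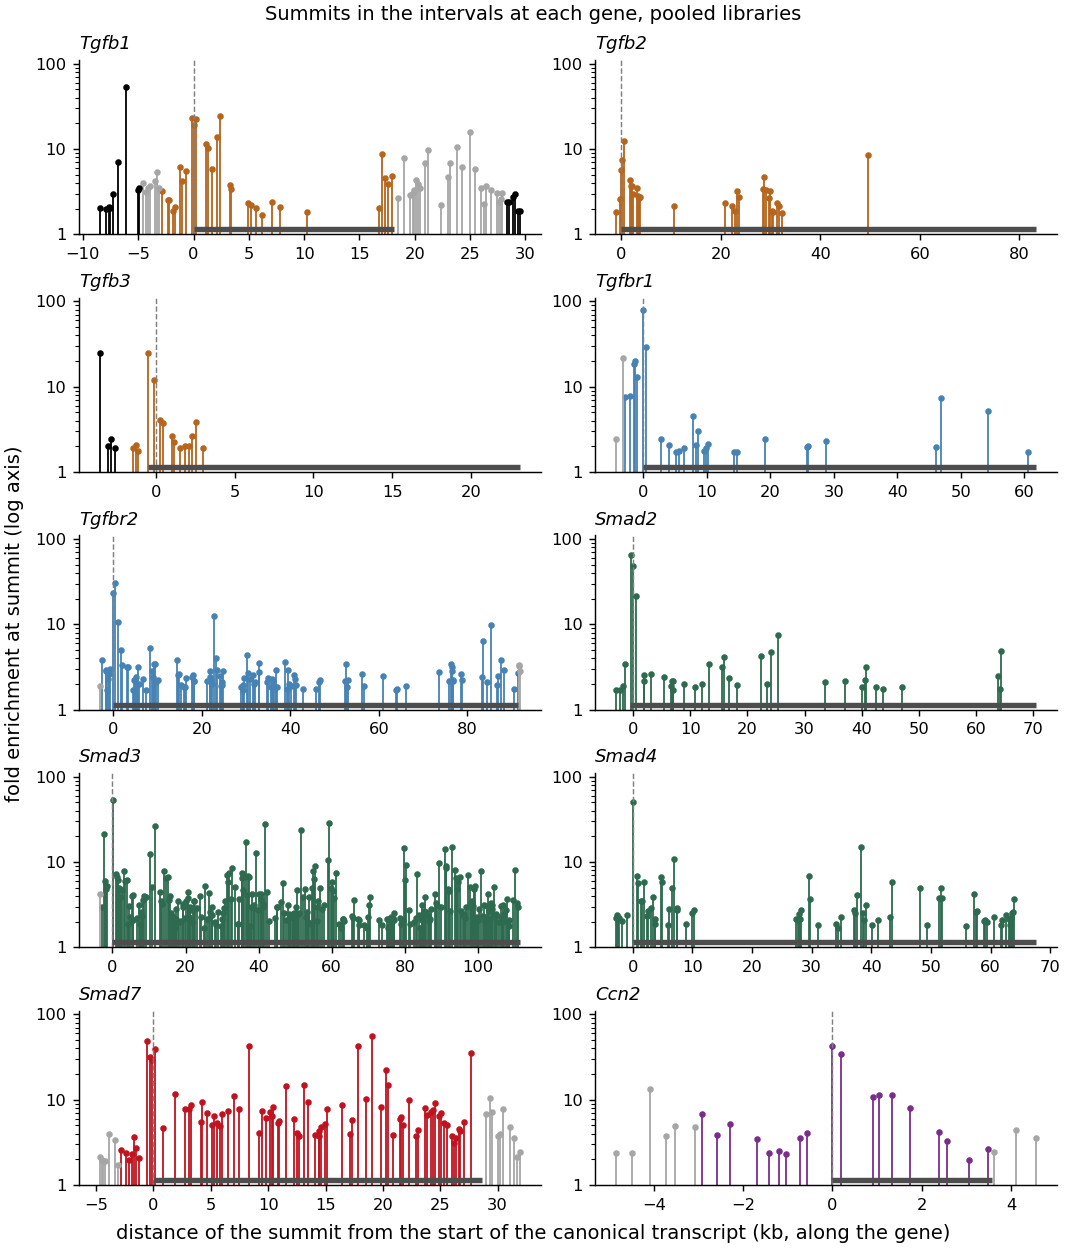
Every summit in the intervals at each gene, by distance from the canonical start along the gene (kb) and fold enrichment (log axis). Coloured summits lie between 3 kb upstream and the gene end, grey ones outside it, and black ones within 1 kb of the start of another protein-coding gene, while the dark bar is the annotated gene. Smad3 and Smad7 carry tall summits along the gene, and Tgfbr1 and Smad2 mainly at the start.

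Smad7 (chr18:75500374-75529006, + strand), the feedback inhibitor, was the most fully covered gene of the set. Only 3 intervals were counted, but they were wide: 21605 bp with 56 summits, 11207 bp with 31 summits and 3471 bp with 10 summits. Together they covered 98.3% of the region, more than in 98.7% of protein-coding genes. A count of intervals therefore understates Smad7, whose region held 80 summits, 15 of them of 10-fold or more and 9 of 20-fold or more. Its start peak was 48.1-fold (44.6 to 51.7, 733 reads) at -590, with 39.1-fold at 92 bases. The tallest summit of the gene lay in intron 3, at 19015 bases, with 55.3-fold (51.7 to 59.2, 844 reads). The counting intervals of both touch at 51.7, and the difference between the intronic and the start peak was not tested. Further tall summits stood at 8371 bases (42.5-fold, near another Smad7 transcript start), 17834 bases (42.2-fold, intron 3) and 27661 bases (35.2-fold, exon 4). The third interval peaked at 10.3-fold beyond the gene end.

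Ccn2 (chr10:24471333-24474900, + strand), which encodes a matricellular protein induced by TGF-β and by YAP, is the shortest of the 10 genes. Its start peak was 42.0-fold (38.8 to 45.4, 641 reads) at -8, with a second summit of 34.0-fold at 196 bases. Both belonged to an interval of 7950 bp with 23 summits, which ran upstream to a summit of 13.4-fold at -4094. Intervals covered 92.9% of the region, more than in 96.5% of protein-coding genes. The other 2 intervals had 4.45-fold and 1.96-fold.

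By start peak the order was Tgfbr1, Smad2, Smad3, Smad4, Smad7, Ccn2, Tgfbr2, Tgfb3, Tgfb1 and Tgfb2. With no replicates, neighbours in this order could be compared by counting error alone. By it the intervals of Smad3 and Smad4, Smad4 and Smad7, Smad7 and Ccn2, and Tgfb3 and Tgfb1 overlapped. Those of the other neighbours were apart. Overlap alone does not show that peaks are equal, and no difference was tested. The 3 ligands held the 3 lowest places. The order depends on the distance allowed from the start: within 250 bases Smad2 (48.0-fold) came below Smad3 (53.0-fold) and Smad4 (50.6-fold), Smad7 (39.1-fold) came below Ccn2 (42.0-fold), and Tgfbr2 (23.0-fold) was level with Tgfb1 (22.9-fold). The median over the 10 genes was 45.0-fold, against 28.5-fold over the 16410 protein-coding genes with a summit within 1 kb of the start, with no test. At 3 genes the strongest interval peaked more than 1 kb from the canonical start: at the neighbours' starts for Tgfb1 and Tgfb3, and in intron 3 for Smad7. Among protein-coding genes with an interval, 36.9% had this arrangement.

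**Figure D3:**
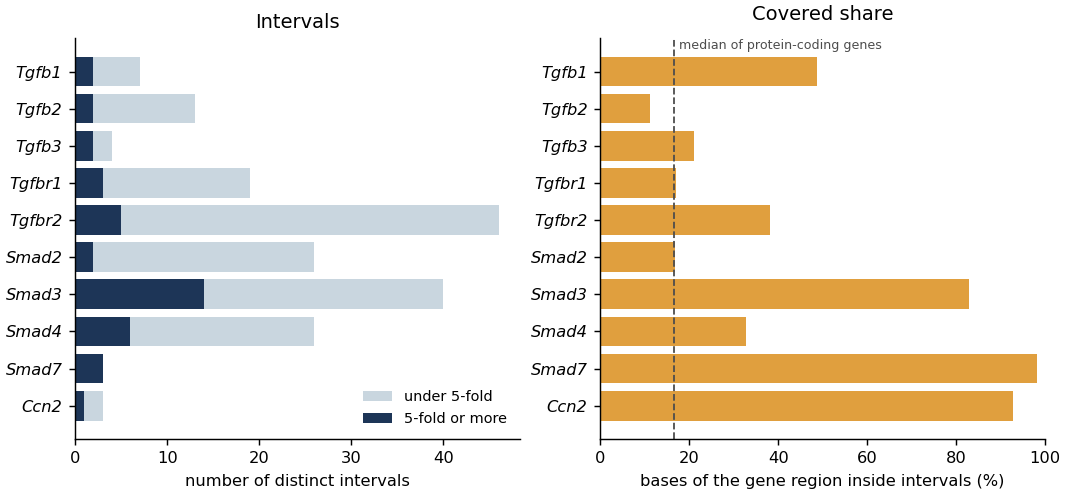
Number of distinct intervals at each gene, split at 5-fold (left), and percentage of the bases from 3 kb upstream to the gene end that lie inside intervals (right), with the median over protein-coding genes (16.7%) as a dashed line. Tgfbr2 has the most intervals (46), while Smad7, with 3, has the largest covered share (98.3%).

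The median covered share was 35.4% against 16.7% over protein-coding genes, although Tgfb2 (11.3%) lay below that median and Smad2 (16.8%) and Tgfbr1 (17.0%) at it. The median number of intervals was 16 against 4. These genes are also longer, with a median of 64686 bases against 19173, and per 10 kb the median was 3.41 intervals against 1.86. Counted apart from peaks within 1 kb of a start of the gene itself, first introns held 97 of the 187 intervals (51.9%), against 20.3% over all protein-coding genes, and later introns 43 (23.0% against 41.9%). First introns also made up 46.9% of the bases of these gene regions, against 20.5% over all protein-coding genes. Per 10 kb of first intron there were 3.51 intervals at these genes, against 2.87 per 10 kb of the rest of their regions, and over all protein-coding genes 1.67 against 1.70. The genes differed among themselves. The first intron of Smad4 had 1.18 intervals per 10 kb and the rest of its region 5.09, while the first intron of Tgfbr2 had 5.78 and the rest 4.10. In these rates, peaks within 1 kb of a start of the gene counted with the rest even inside a first intron. The length of the first intron was kept whole. The Smad4 interval of 10.8-fold at 6909 bases was among the peaks counted in this way.

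At the canonical start lay 4.81% of all 187 intervals, against 8.04% over all protein-coding genes. Positions were also taken for the 40 intervals of 5-fold or more. Of these 9 lay at the canonical start (22.5%, against 25.5% of such intervals over all protein-coding genes), 13 in first introns (32.5% against 14.7%), 8 in later introns (20% against 32.1%) and 4 near the start of another transcript of the same gene. The remaining 6 were upstream, in exons or beyond the gene end. Smad3 alone held 9 of the 13 in first introns.

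Motif matches were counted in the 200 bases around the highest summit of each interval, for 12 patterns, on both strands and without mismatches. No pattern contains another. The palindrome GTCTAGAC, to which SMAD3 and SMAD4 bind in vitro, was found in 0 of the 187 windows and in 0.231% of all windows in the list. The shorter SMAD site CAGACA was found in 34 (18.2%), against 20.0% in the list, in 9 of the 10 genes, with the tallest at Smad7 in intron 3. AP-1 (TGANTCA) was found in 14 (7.49%, against 12.4%), TEAD (GGAATG) in 28 (15.0%, against 13.9%), GGGCGG in 18 (9.63%, against 8.15%) and CCAAT in 35 (18.7%, against 22.8%). The rarer patterns were CCGGAAGT (ETS factors) in 4 windows (2.14%, against 0.591%), TATAAA in 10 (5.35%, against 6.81%), GTTAATNAT (HNF1, a tubule factor) in 2 (1.07%, against 1.29%) and CAAAGTCCA (HNF4, a proximal tubule factor) in 1 (0.535%, against 0.884%). The CREB site TGACGTCA and AGGGGGCGC, part of the CTCF site, were found in 0 windows, against 0.405% and 0.442%. A match is only a run of letters and does not show that a factor was bound.

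**Figure D4:**
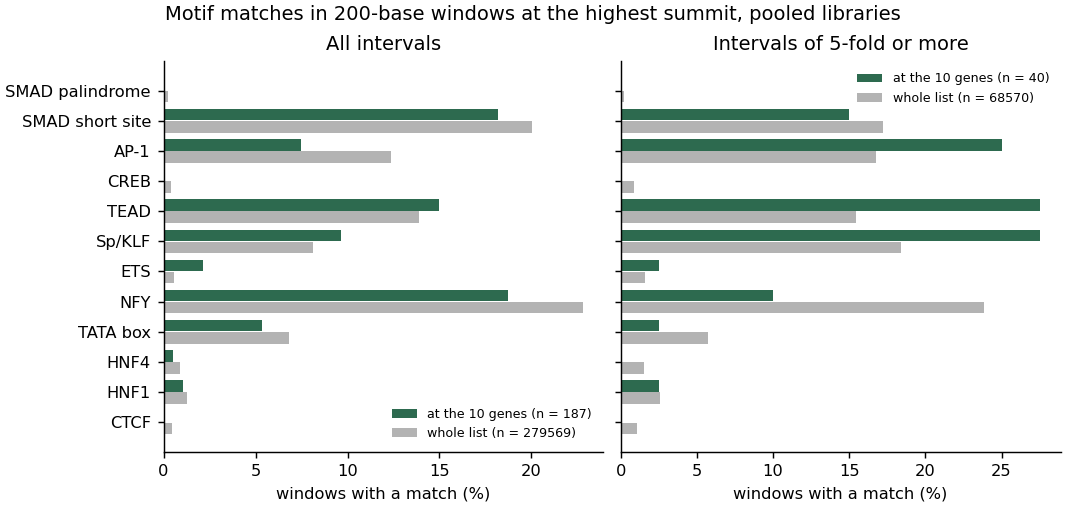
Percentage of 200-base windows at the highest summit with at least 1 match to each pattern, at the 10 genes (green) and over the whole list (grey), for all intervals (left, 187 and 279569 windows) and for those of 5-fold or more (right, 40 and 68570 windows). In the left panel AP-1 matches are at 7.49% at the 10 genes and 12.4% in the list, and in the right panel at 25% and 16.8%.

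Among the 40 windows of 5-fold or more the AP-1 share was on the other side of the list: 10 held a match (25%), against 16.8% of such windows overall. Smad3 supplied 6 of these 10, between 5.30-fold and 24.0-fold and all away from its start, and Tgfbr2 supplied 2, at its start and in the first intron window printed above. TEAD matches were in 11 of the 40 (27.5% against 15.4%), 4 of them at Smad3 and none at Tgfb1, Tgfb2 or Smad4. GGGCGG was in 11 (27.5% against 18.4%), CCAAT in 4 (10% against 23.8%) and CAGACA in 6 (15% against 17.2%). The windows belong to 10 genes, and those of 1 gene are not independent of each other, so these shares are descriptions.

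The other genes of the pathway are given beside all protein-coding genes, of which 75.8% had an interval at the start and 66.2% one of at least 5-fold, with a median of 28.5-fold at the highest summit within 1 kb. Of the 11 genes for ligand latency and activation, 10 had an interval of at least 5-fold at the start, and their median of 14.0-fold was below that of all genes. The tallest were Itgav (68.1-fold) and Itgb8 (49.2-fold), which encode the subunits of an integrin that releases active TGF-β, and the lowest was Ltbp1 (4.26-fold), which encodes a latent TGF-β binding protein. All 12 regulators of SMADs passed 5-fold (66.2% of all genes), with a median of 44.3-fold against 28.5-fold, led by the corepressors Skil (87.2-fold) and Ski (83.9-fold), with the corepressor Tgif2 lowest (11.3-fold). The other 4 SMADs had a median of 34.9-fold, from Smad9 (24.7-fold) to Smad6 (35.4-fold) and Smad1 (53.8-fold). The 4 genes for co-receptors and other receptors of the pathway split. The decoy receptor gene Bambi had 64.0-fold and the betaglycan gene Tgfbr3 33.7-fold, while the endothelial receptor gene Acvrl1 had 4.52-fold.

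On the BMP and activin side, the 7 receptor genes had a median of 41.2-fold, from Bmpr1b (22.3-fold) to Acvr2a (58.0-fold) and Acvr1 (58.9-fold). The 10 ligands and antagonists had a median of 11.1-fold, with Bmp6 (37.8-fold) and Bmp7 (31.8-fold) highest and the activin subunit gene Inhba (2.36-fold) lowest. By the tallest summit of any interval overlapping 1 kb on either side of the start, Inhba (42.6-fold) and Bmp4 (41.1-fold) were instead the highest, from summits more than 1 kb away. Of 12 target genes 11 had an interval at the start (75.8% of all genes), with a median of 32.1-fold against 28.5-fold. Skil (87.2-fold) and Bambi (64.0-fold), which stand in other lists too, were highest, and the myofibroblast gene Acta2 (3.54-fold) was lowest. Postn, which encodes the matrix protein periostin, was the only 1 of them with no interval at its start. Of the 5 other CCN genes, Ccn1 had 44.3-fold, close to its relative Ccn2, while Ccn3 and Ccn4 had 12.1-fold each and Ccn6 had 2.75-fold.

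**Figure D5:**
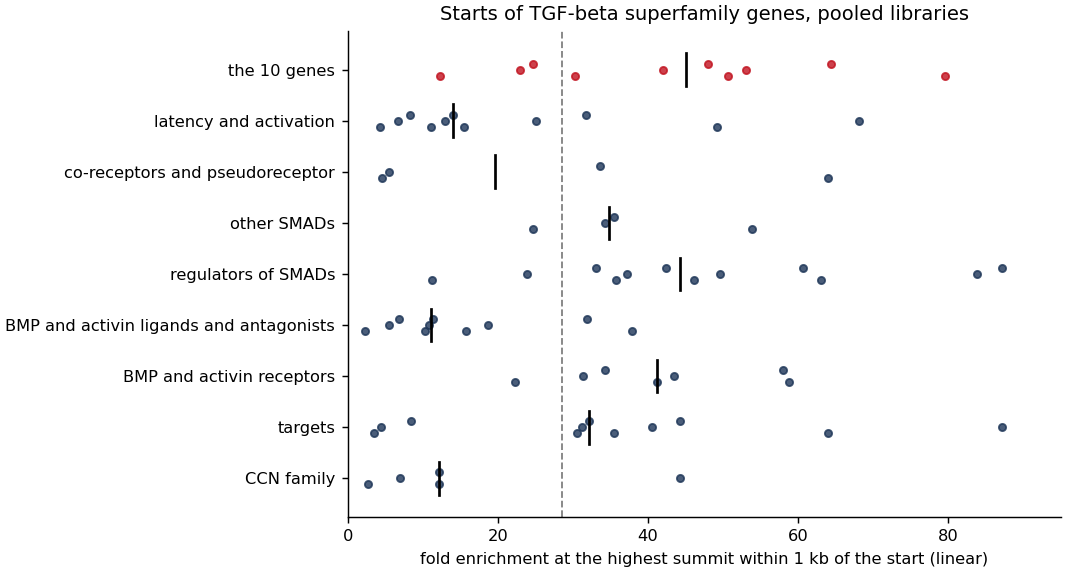
Fold enrichment at the highest summit within 1 kb of the canonical start (linear axis) for the 10 genes (red) and for 8 lists of genes of the TGF-β superfamily (blue), with the median of each list as a black line and the median over protein-coding genes (28.5) as a dashed line. The regulators of SMADs (median 44.3) and the BMP and activin receptors (41.2) lie near the 10 genes (45.0). The list of BMP and activin ligands and antagonists has the lowest median (11.1).

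The tissue label was checked on marker genes, again beside the 66.2% of all protein-coding genes with a start interval of at least 5-fold and their median of 28.5-fold. All 6 proximal tubule markers had such an interval, with a median of 11.1-fold at the highest summit within 1 kb, led by the endocytic receptor gene Lrp2 with 33.1-fold. All 4 markers of the thick ascending limb and distal tubule had one too, with a median of 13.5-fold and summits of up to 20.8-fold. At Slc12a3 the 8.38-fold of the interval came from a summit more than 1 kb away, and 4.39-fold was reached within 1 kb. Both medians lay below that of all genes. Of the markers of other cells of the cortex, 1 of 3 for the collecting duct, 1 of 3 for podocytes, 1 of 4 for endothelium, 2 of 3 for stroma and 1 of 3 for immune cells reached 5-fold. Among these Synpo (podocytes, 29.5-fold) and Cd74 (immune cells, 25.0-fold) were higher than 5 of the 6 proximal tubule markers. Of 7 genes of other organs 5 had an interval at the start, and 1 of these intervals reached 5-fold, at a summit more than 1 kb away. The peaks are a mixture over all these cells, so the share of cells in which a site is open and the signal per cell cannot be told apart, and which cell type carries a given peak was not tested.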

How the data were processed

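ATAC-seq of mouse kidney nuclei was described from 1 pooled peak list for 6 libraries, 3 WT and 3 Acly cKO. Read trimming by the authors used fastp and alignment to mm39 used Bowtie2 2.3.4.3. They dropped duplicates and reads without a unique position, and called peaks with MACS3 3.0.0 (reads extended to 200 bases, q of 0.05, summits called). Peaks in blacklisted regions or on other sequences than the standard chromosomes were taken out with bedtools 2.29.1. deepTools 3.5.1 is also named in the submitters' processing notes. Each deposited row gives a fold enrichment, the linear ratio of pileup to background as the authors' caller wrote it. It also gives the −log10 p-value and −log10 q-value computed by the authors' caller, and a deposited score, which was 10 times the −log10 q as a whole number in 100% of rows. A second deposited list, made before that filter, gives the −log10 q of 750624 summits. The filter removed 874 of them, and 0 at these genes.

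Rows with the same chromosome, start and end were joined into 1 interval that took the fold and q of the summit with the highest −log10 q. Genes and canonical starts came from GENCODE M39 (GRCm39). Fold enrichments were whole multiples of a step of 0.0655 in 100% of 749750 summits (tolerance 0.05 steps), equal to (pileup + 1) divided by (14.3 + 1), and the −log10 p followed the Poisson tail of that background within 1% in 100% of the 728578 summits checked. The pileup was recovered in this way and given an exact Poisson interval at 95%, which covers counting error only. Pileup counts extended reads, not molecules or cells. Because the background was 1 constant, the fold does not correct for local copy number, mappability or the ease of cutting GC-rich DNA. No columns for single libraries were found (0), so no test was run. Percentiles are over protein-coding genes with a value.

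All 10 genes are named, with their strongest interval and every interval of at least 5-fold, up to 6 a gene, and for each pathway list the 2 highest genes, the lowest and any without an interval at the start. The members, lists, motifs and settings were chosen with earlier results of these data known. Sequences were read from GRCm39 for 7 genes, and 3 genes have none printed. The scripts were tested on simulated data. The work used Python 3.11.15 with pysam 0.24.0, scipy 1.17.1, matplotlib 3.10.9, pandas 2.3.3 and numpy 2.4.6.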

Additional observations from a re-analysis of the deposited data

How the results depend on the processing

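No paired analysis was possible because the libraries were pooled before the peaks were called and no column belongs to a single library, and for the same reason no replicate could be left out. The 187 intervals fell to 104 with a q under 1e-05 and to 40 at 5-fold or more, and became 792 when summits were counted. By the same settings the 279569 intervals of the whole list fell to 153523 and to 68570, and became 749750. The 40 intervals of at least 5-fold fell to 23 at a threshold of 10-fold, and the 68570 of the whole list to 34249. The median fold enrichment at the start, 49.3 by the tallest summit of any interval overlapping 1 kb on either side, was 40.6 with summits within 250 bases and 45.0 with summits within 1 kb, the last an alternative chosen after seeing the data. Of the 10 single values at the start, 6 moved beyond their counting interval with summits within 250 bases and 1, that of Tgfb1 (53.2 to 22.9), with summits within 1 kb. Taking the gene body alone or 10 kb on either side gave 181 and 243 intervals, of which 39 and 47 reached 5-fold. All 10 genes kept an interval at the start under each alternative tried. Of 12 motif shares, 7 moved beyond their counting interval with windows of 100 bases and 5 with 400 bases. Among intervals of at least 5-fold 6 did. The counting interval takes the 187 windows as independent. A longer window has more room for a match, and the shares in the list moved with window length too. The AP-1 share stayed below the list, at 4.81% against 8.23% with 100 bases and 16.0% against 17.6% with 400. The CCAAT share, below the list with 200 bases, was 12.3% against 12.2% with 100 and 41.2% against 40.8% with 400. Peaks under the caller's threshold of q cannot be seen, and without single libraries none of these values has a biological error.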
